A study of Homo sapiens with 16 samples.

Results

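The 10 genes described here belong to interleukin 6 (IL6) family signalling: the ligands IL6, IL11 and LIF, the receptor chains IL6ST, IL6R, LIFR and OSMR, the kinase JAK1, the transcription factor STAT3 and the feedback inhibitor SOCS3. They were chosen by symbol from a table of 57500 genes, from a list proposed with results of these same libraries known and named for IL6ST. All 10 were found and all 10 passed the filter on low counts, as did 15566 genes in all. Because of that choice, every value of these 10 genes is a description, given with its spread and with no p-value.

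The measurements are RNA sequencing counts of polyadenylated RNA from MDA-MB-231, a human triple-negative breast cancer cell line. All cells carry a short hairpin RNA that doxycycline (dox) switches on, either one against AKAP2 (shAKAP2), a scaffold that anchors protein kinase A, or a scrambled control hairpin (shScramble). The groups are shAKAP2 with dox, shAKAP2 without dox, shScramble with dox and shScramble without dox, with 4 libraries each. Libraries of a group are labelled as biological replicates with no word on separate cultures, so the spread behind each SE and p-value may be partly technical. The labels also leave out the dose and duration of dox, the hairpin sequences, the promoter that drives them and whether a line is 1 clone. Hairpin line and any other difference between the lines therefore cannot be told apart.

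Cytokines of the IL6 family signal through a shared receptor chain, gp130, which is the product of IL6ST. Each ligand first meets its own partner chain: IL6 binds IL6R, IL11 binds IL11RA, LIF binds LIFR, and oncostatin M uses LIFR or OSMR. The gp130 complex activates Janus kinases, above all JAK1, which phosphorylate STAT3, and STAT3 switches on target genes including SOCS3, whose product blocks gp130 and JAK1 in turn. IL6 secretion and active STAT3 have been described in triple-negative breast cancer lines.

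Total counts per library ranged from 24482997 to 37472525. AKAP2 itself had 4 counts over the shAKAP2 libraries with dox, against 168 without it, and 212 in shScramble libraries with dox, against 144 without it. The markers VIM, CD44, KRT18 and EGFR, which MDA-MB-231 cells express, summed to 2710 to 3490 counts per 1000000 (CPM) in every library. The hormone receptor gene ESR1 had 1 count in all 16 libraries together, and PGR had 12. Levels are given as CPM, meaning counts scaled to a library size adjusted by the trimmed mean of M values (TMM). The libraries numbered 1 of both shScramble groups stood apart from the rest: their root mean square distance to the mean of their group, over all genes on the log2 scale, was 0.615 with dox and 0.565 without, against 0.384 to 0.469 for the other 14 libraries. Where these libraries change a call or a value named below, the value without them is given as well. Markers of other cell types also differed between groups. The summed level of 10 blood and myeloid genes, none of them at 0 in any group and most of it from LAPTM5, was 54 to 71.8 CPM in shAKAP2 cells with dox, 78.1 to 91.3 CPM without it, 143 to 195 CPM in shScramble cells with dox and 90.4 to 108 CPM without it. The summed level of 8 fibroblast genes, again none at 0 in any group, was 19.6 to 21.8 CPM, 21.6 to 33.3 CPM, 46.5 to 70.5 CPM and 24.8 to 46.7 CPM in the same groups. In shScramble cells COL1A2 and PDGFRB led the fibroblast sum. COL1A1 went the other way, at 7.12 and 6.55 CPM in shAKAP2 cells with and without dox, against 3.67 and 2.85 CPM in shScramble cells. DCN had 1 count over the shAKAP2 libraries with dox. The part of these markers in the results below was not tested. In bulk RNA, fewer cells that express a gene and less of its RNA per cell cannot be told apart.

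IL6ST (ENSG00000134352; GRCh38 chr5:55935095-55994993, minus strand) has the longest 3′ untranslated region (3′ UTR) of the 10 genes in GENCODE 29, with 7641 bases. The 7-letter word GAACACA is shown because an earlier analysis of these libraries reported that it was more frequent in 3′ UTRs of genes lower in shAKAP2 cells with dox, so its presence here is no independent evidence. IL6ST holds 2 copies, whose starts lie 39 bases apart, at positions 5606 and 5645 of its longest 3′ UTR. At least 1 copy stands in 3 of the 5 IL6ST transcripts searched, which were protein-coding transcripts of the basic GENCODE set with a complete end. The targeted gene AKAP2 holds 1 copy. They lie at chr5:55937154-55937160 (first copy) and chr5:55937115-55937121 (second copy), both on the minus strand, and at chr9:110169258-110169264 on the plus strand. In the sequences, capitals mark the word and lower case the 11 bases on each side:
IL6ST first copy: ttttatttcttGAACACAggctttgtctg
IL6ST second copy: ttttatctcttGAACACAagctttgaatg
AKAP2: gcagtttatgaGAACACAttttcacagtt

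None of the other 9 genes holds the word; their longest 3′ UTRs run from 429 bases for IL6 to 6632 bases for LIFR. The word was searched as written on the sense strand. It stood in 13.8% of the 12822 tested genes with an annotated 3′ UTR, in 40.9% of the 1025 genes whose longest 3′ UTR has at least 5000 bases, and 2 or more copies stood in 1.98% of all. A match describes the letters of the annotation, and its part in any level was not tested.

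IL6ST was the most abundant receptor chain per length in every group, and its level in shAKAP2 cells with dox stood far below that in the other groups. It measured 202, 192, 196 and 204 CPM in shAKAP2 libraries with dox, against 498, 534, 535 and 558 CPM without dox. The scrambled control line gave 686, 654, 695 and 608 CPM with dox, against 642, 589, 535 and 589 CPM without dox. All 4 shAKAP2 libraries with dox were below all 12 others, and the spread within that group was small (198.5 ± 5.62 CPM, SD, n = 4). In the shAKAP2 line the log2 difference, dox against no dox, was -1.42 (SE 0.0646), which is 37.4% of the level without dox. The same difference in the shScramble line was 0.17 (SE 0.0632), with overlapping groups. It was 0.19 (SE 0.0538) without the 2 libraries numbered 1, when the groups no longer overlapped. The order of the mean levels was shScramble with dox, shScramble without dox, shAKAP2 without dox and shAKAP2 with dox. With all libraries, only the last step showed no overlap between neighbours. Over 23 alternative fits the log2 difference in the shAKAP2 line lay between -1.45 and -1.40. AC008914.1, annotated on the opposite strand, shares 8.58% of the exonic bases of IL6ST, and without a statement that counting used strand their reads cannot be told apart.

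**Figure D1:**
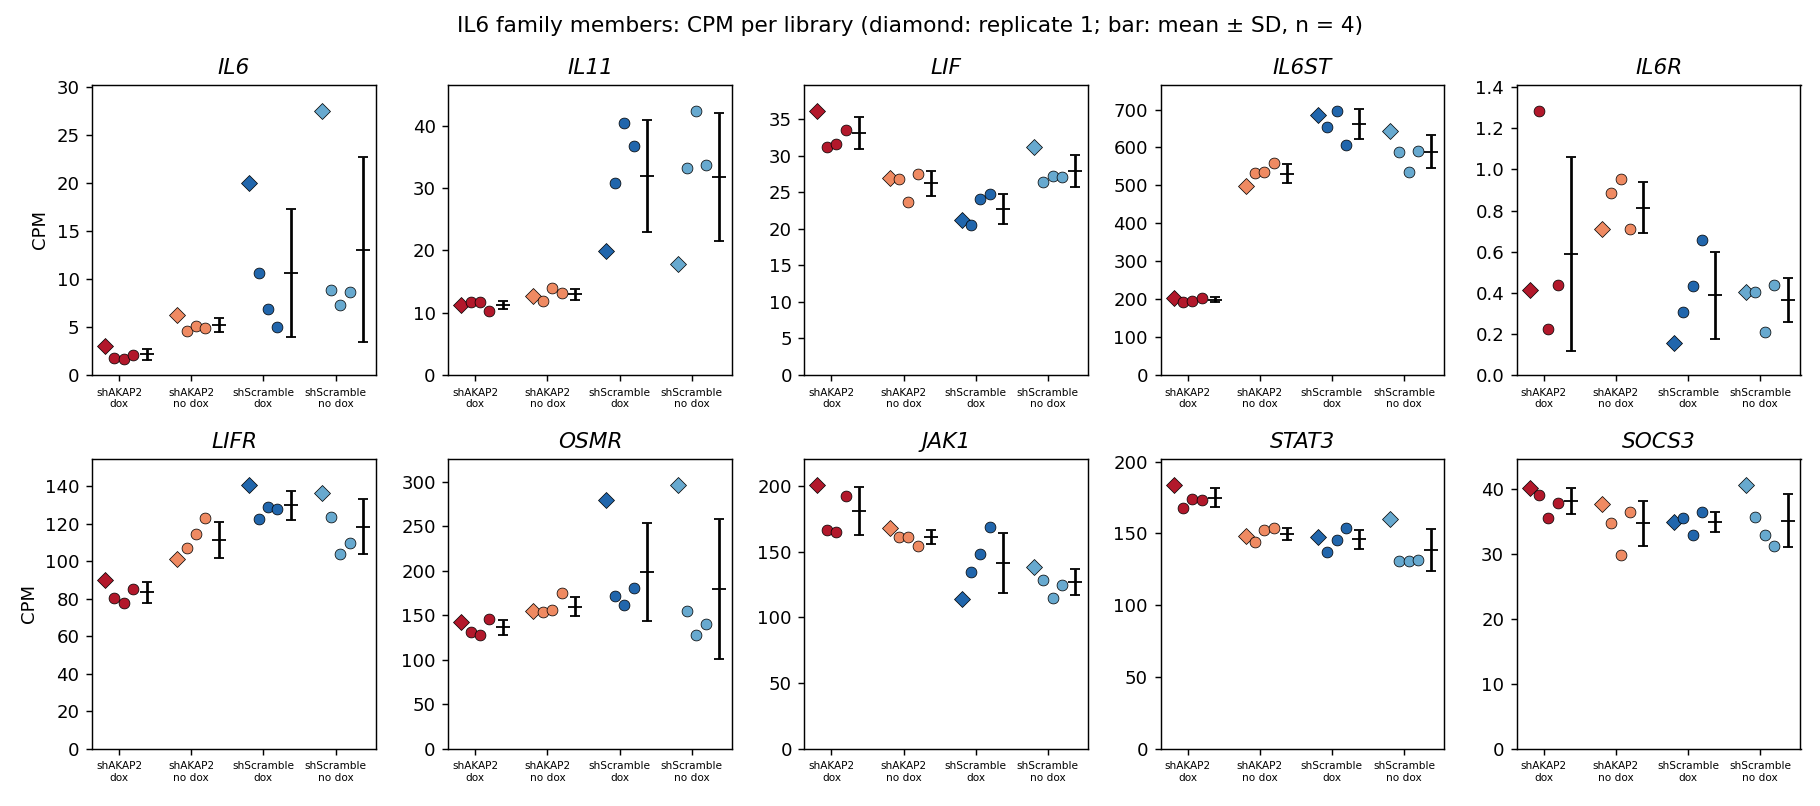
Level of each of the 10 genes in CPM (vertical axis, from 0) in every library of the 4 groups; diamonds are libraries numbered 1, circles the others, and bars show mean ± SD (n = 4). IL6ST lies at 192 to 204 CPM in all 4 shAKAP2 libraries with dox and at 498 to 695 CPM in the rest, while IL6 and OSMR of the shScramble groups are spread by their libraries numbered 1.

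LIFR (ENSG00000113594; chr5:38474963-38608354, minus strand) pairs with gp130 to bind LIF and oncostatin M. Its level was 90.1, 80.5, 77.6 and 85.5 CPM in shAKAP2 libraries with dox, against 101, 107, 115 and 123 CPM without dox. The shScramble libraries stood at 141, 122, 129 and 128 CPM with dox, against 137, 124, 104 and 109.9 CPM without dox. As for IL6ST, the shAKAP2 libraries with dox were the lowest 4 of all 16, but the gap was far smaller. The log2 difference was -0.42 (SE 0.0849) in the shAKAP2 line, or 74.8% of the level without dox, and 0.13 (SE 0.0843) in the shScramble line, where the groups overlapped. LIFR-AS1, an antisense gene, shares 5.3% of LIFR exonic bases.

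OSMR (ENSG00000145623; chr5:38845858-38945596, plus strand) pairs with gp130 to bind oncostatin M. It measured 142, 131, 128 and 146 CPM in shAKAP2 libraries with dox, against 155, 154, 156 and 175 CPM without dox. Among shScramble libraries OSMR measured 279.9, 172, 162 and 181 CPM with dox, against 297, 155, 127 and 139.7 CPM without dox. The shAKAP2 groups did not overlap, whereas the library numbered 1 of each shScramble group was far above the other 3. The log2 difference in the shAKAP2 line was -0.23 (SE 0.233), and the SE, which the 4 groups share, was 0.0594 without the 2 shScramble libraries numbered 1 (log2 difference -0.23). In the shScramble line the difference was 0.14 (SE 0.232) with all libraries and 0.29 (SE 0.0684) without those 2, when the groups no longer overlapped. Leaving out the dox library numbered 1 alone gave -0.06, and leaving out the no dox library numbered 1 alone gave 0.49. Between the lines without dox, OSMR differed by -0.17 (SE 0.233) with all libraries and by 0.19 (SE 0.0643) without the 2, a change of sign. Oncostatin M itself (OSM) had no count in any library; a count of 0 allows up to 3 counts per library, or 0.123 CPM at the lowest total.

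IL6R (ENSG00000160712; chr1:154405193-154469450, plus strand) encodes the chain that binds IL6. Its RNA was near the limit of these libraries, with 63 counts summed over the shAKAP2 libraries with dox, 95 without dox, 48 in shScramble libraries with dox and 44 without dox. Single libraries lay at 0.412, 1.28, 0.226 and 0.439 CPM in shAKAP2 cells with dox, against 0.713, 0.883, 0.951 and 0.709 CPM without dox. In shScramble cells they lay at 0.156, 0.306, 0.430 and 0.656 CPM with dox, against 0.403, 0.406, 0.207 and 0.439 CPM without dox. All 4 shAKAP2 libraries without dox were above all 4 shScramble libraries without dox, a log2 difference of 1.15 (SE 0.512), while the lines with dox overlapped. In the shAKAP2 line the log2 difference, dox against no dox, was -0.45 (SE 0.497), and it was -1.17 without the shAKAP2 dox library numbered 2, the highest of the 16.

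Compared per kilobase of annotated exon, IL6ST averaged 21.4 ± 0.605 CPM per kb in shAKAP2 cells with dox and 57.1 ± 2.68 CPM per kb without dox (SD, n = 4 each). The averages for shScramble cells were 71.1 ± 4.25 CPM per kb with dox and 63.4 ± 4.7 CPM per kb without dox. OSMR stood next among the receptor chains, at 19 ± 1.21, 22.3 ± 1.41, 27.7 ± 7.61 and 25 ± 11 CPM per kb in the same order of groups. The balance between gp130 and its partner chains therefore differed between groups. The ratio of IL6ST to OSMR per kb was 1.08 to 1.18 in the shAKAP2 libraries with dox, against 2.46 to 2.68 without dox. In shScramble libraries it was 1.89 to 3.31 with dox, against 1.67 to 3.26 without dox, the lowest values again being those of the libraries numbered 1. The ratio of IL6ST to LIFR per kb was 2.87 to 3.22 in shAKAP2 libraries with dox, against 5.79 to 6.37 without dox. In shScramble libraries that ratio was 6.07 to 6.89 with dox, against 6.01 to 6.85 without dox. IL6R lay at 0.0914 ± 0.0731 CPM per kb in shAKAP2 cells with dox, 0.126 ± 0.0189 without dox, 0.06 ± 0.0329 in shScramble cells with dox and 0.0564 ± 0.0164 without dox, the lowest level per length of the 10 genes in every group.

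Of the ligands, IL6 (ENSG00000136244; chr7:22725884-22732002, plus strand), the cytokine that names the family, averaged less in the shAKAP2 line than in the shScramble line and least with dox. It measured 3.01, 1.76, 1.69 and 2.12 CPM in shAKAP2 libraries with dox, against 6.28, 4.57, 5.06 and 4.94 CPM without dox. Among shScramble libraries IL6 measured 19.96, 10.6, 6.85 and 5.003 CPM with dox, against 27.5, 8.89, 7.25 and 8.60 CPM without dox. The shAKAP2 groups did not overlap, and the shScramble values were dominated by the libraries numbered 1. The log2 difference in the shAKAP2 line was -1.29 (SE 0.505), or 41% of the level without dox, and the SE was 0.21 without the 2 shScramble libraries numbered 1. In the shScramble line it was -0.32 (SE 0.444) with all libraries, -0.14 (SE 0.213) without those 2, 0.35 without the no dox library numbered 1 alone and -0.82 without the dox library numbered 1 alone. Without dox, shAKAP2 against shScramble gave -1.33 (SE 0.459) with all libraries and -0.66 (SE 0.202) without those 2, with no overlap in either case. AC073072.1 and STEAP1B, both on the opposite strand, overlap IL6 exons, which share 20.7% of their bases with other genes.

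IL11 (ENSG00000095752; chr19:55364389-55370463, minus strand), which signals through IL11RA and gp130, differed between the lines and hardly with dox. It measured 11.2, 11.7, 11.8 and 10.3 CPM in shAKAP2 libraries with dox, against 12.7, 11.9, 14 and 13.2 CPM without dox. The shScramble libraries had 19.8, 30.9, 40.4 and 36.8 CPM with dox, against 17.8, 33.3, 42.3 and 33.6 CPM without dox. Every shAKAP2 library was below every shScramble library, and here the shScramble libraries numbered 1 were the lowest of their groups. Without dox, shAKAP2 against shScramble gave a log2 difference of -1.29 (SE 0.222), or 40.9% of the shScramble level, and -1.49 (SE 0.103) without the 2 libraries numbered 1. With dox the same comparison gave -1.51 (SE 0.225). The log2 difference with dox was -0.20 (SE 0.227) in the shAKAP2 line, where the groups did not overlap, and 0.01 (SE 0.215) in the shScramble line, where they did.

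LIF (ENSG00000128342; chr22:30240447-30246851, minus strand), the ligand of LIFR, had opposite differences with dox in the 2 lines. It measured 36.1, 31.2, 31.7 and 33.6 CPM in shAKAP2 libraries with dox, against 27.0, 26.8, 23.8 and 27.5 CPM without dox. The scrambled hairpin line had 21.3, 20.6, 24.1 and 24.8 CPM with dox, against 31.3, 26.4, 27.2 and 27.1 CPM without dox. The groups of each line did not overlap, with dox above no dox in the shAKAP2 line and below it in the shScramble line. The log2 difference was 0.34 (SE 0.0874) in the shAKAP2 line and -0.30 (SE 0.0878) in the shScramble line, where it was -0.21 (SE 0.0934) without the 2 libraries numbered 1. Per kb, LIF stood at 6.26 to 9.76 times the level of IL6 in shAKAP2 libraries with dox, against 2.24 to 3.05 times without dox. In shScramble libraries the ratio was 0.556 to 2.58 with dox, against 0.593 to 1.95 without dox.

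JAK1, STAT3 and SOCS3 act below the receptor. JAK1 (ENSG00000162434; chr1:64833229-64966504, minus strand), the kinase bound to gp130, measured 201, 166, 165 and 192 CPM in shAKAP2 libraries with dox, against 168, 162, 161.5 and 155 CPM without dox. JAK1 in shScramble libraries measured 114, 135, 148 and 169 CPM with dox, against 138.5, 129, 115 and 125 CPM without dox. The lines without dox did not overlap, the log2 difference of shAKAP2 against shScramble being 0.35 (SE 0.0962), while the groups within each line overlapped. With dox against no dox, the log2 difference was 0.17 (SE 0.096) in the shAKAP2 line and 0.16 (SE 0.0962) in the shScramble line. Without the 2 shScramble libraries numbered 1 it was 0.30 (SE 0.0768) in the shScramble line, with no overlap.

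STAT3 (ENSG00000168610; chr17:42313324-42388568, minus strand), the transcription factor at the end of the pathway, measured 184, 168, 174 and 173.5 CPM in shAKAP2 libraries with dox, against 148.5, 144, 153 and 154 CPM without dox. In shScramble libraries it measured 147, 137, 145 and 154 CPM with dox, against 159.9, 131, 131 and 131.5 CPM without dox. The 4 shAKAP2 libraries with dox were above the other 12. The log2 difference was 0.22 (SE 0.0679) in the shAKAP2 line and 0.08 (SE 0.0679) in the shScramble line, where the groups overlapped. The difference between those effects was 0.15 (SE 0.096). Without the shScramble libraries numbered 1, STAT3 was higher with dox by 0.15 (SE 0.0559) in the shScramble line, with no overlap. The shAKAP2 line then gave 0.22 (SE 0.0482), and the difference between the effects was 0.07 (SE 0.0738).

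SOCS3 (ENSG00000184557; chr17:78356778-78360077, minus strand), a target gene of STAT3 that blocks gp130 signalling, was nearly level. It measured 40.1, 39.2, 35.6 and 37.8 CPM in shAKAP2 libraries with dox, against 37.7, 34.7, 29.9 and 36.4 CPM without dox. In shScramble libraries it measured 35.0, 35.5, 32.9 and 36.4 CPM with dox, against 40.6, 35.6, 33.0 and 31.2 CPM without dox. All groups overlapped, and the log2 difference was 0.14 (SE 0.089) in the shAKAP2 line and -0.01 (SE 0.0889) in the shScramble line.

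**Figure D2:**
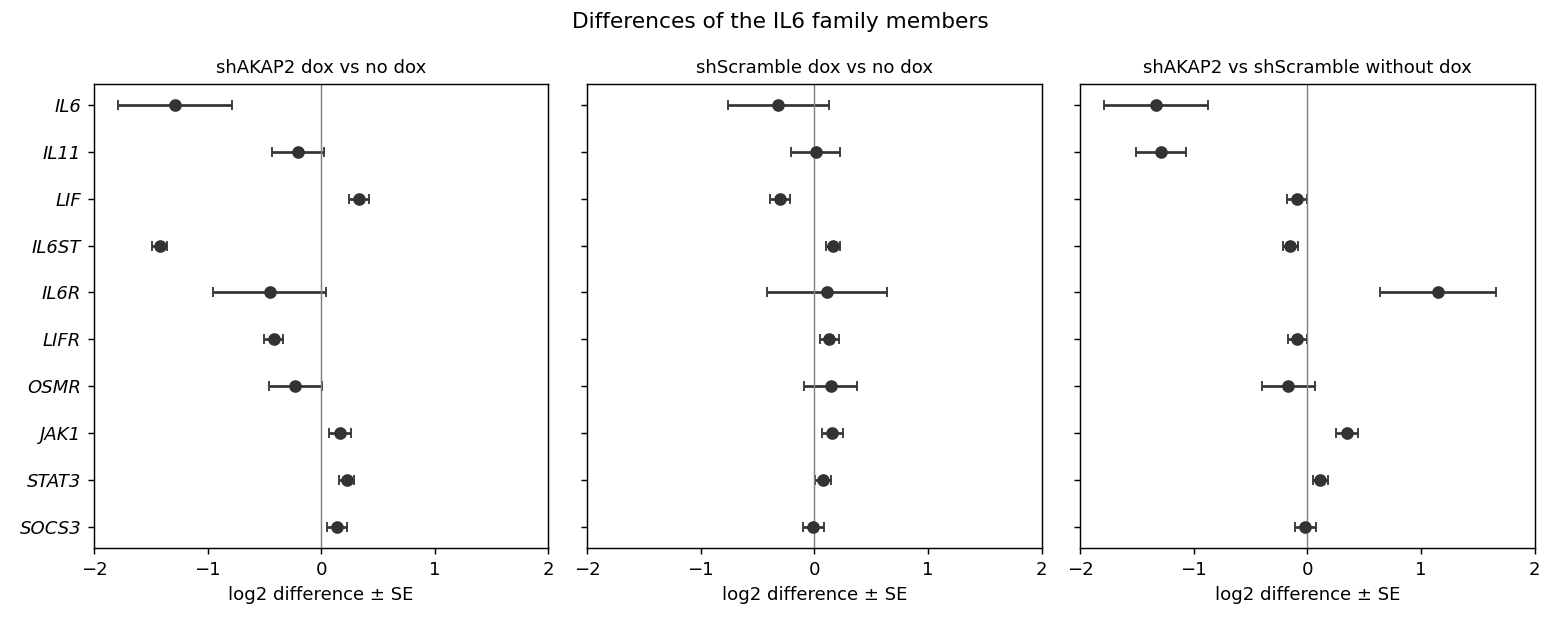
Log2 difference of each of the 10 genes ± SE (horizontal axis) in 3 panels: dox against no dox in shAKAP2 cells, dox against no dox in shScramble cells, and shAKAP2 against shScramble without dox. IL6ST and IL6 lie near -1.4 and -1.3 in the shAKAP2 line, IL6 and IL11 near -1.3 between the lines, and LIF lies on opposite sides of 0 in the 2 lines.

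Counted against all genes, 4 of the 10 passed the threshold of adjusted p 0.05 for dox against no dox in the shAKAP2 line: LIF and STAT3 were higher, IL6ST and LIFR lower, while 28.3% of all tested genes passed. The groups did not overlap for 7 of the 10, 2 higher and 5 lower, against 36.5% of all genes. The median log2 difference of the 10 was -0.22, against 0.00 over all genes tested. STAT3 did not pass without the shAKAP2 dox library numbered 1 or without the shAKAP2 no dox library numbered 2, and IL6 passed in 6 of 23 alternatives, among them DESeq2, the replicate block, the fit of the 2 groups alone and the fits without either shScramble library numbered 1. Since the 10 were chosen with these values known, nothing is read from those counts. In the shScramble line 0 of the 10 passed in edgeR, against 1.08% of all genes, nor did any pass with limma-voom or DESeq2. Unadjusted p-values were under 0.05 for 2 of the 10 there, and LIF alone showed no overlap, against 4.43% of all genes. Without the 2 shScramble libraries numbered 1, IL6ST, OSMR and JAK1 passed as higher in that line, when 6.36% of all genes passed. Between the lines without dox, JAK1 passed as higher and IL11 as lower in shAKAP2 cells, against 18.0% of all genes, and 4 of the 10 showed no overlap, against 25.5%. JAK1 did not pass without the shAKAP2 no dox library numbered 1. There IL6, as lower, and OSMR and STAT3, as higher, also passed without those 2 libraries, 5 in all against 26.4% of all genes.

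The difference between the lines' dox effects sets the dox effect in the shAKAP2 line against that in the shScramble line. It passed for IL6ST (log2 -1.58, SE 0.09), LIFR (-0.55, SE 0.12) and LIF (0.64, SE 0.124), 3 of the 10, against 18.0% of all genes. For IL6 it was -0.97 (SE 0.671) and for OSMR -0.37 (SE 0.329). Without the 2 shScramble libraries numbered 1 those values were -1.15 (SE 0.299) and -0.52 (SE 0.0906) and both passed, 5 of the 10, against 30.6% of all genes; in the shAKAP2 line alone 6 of the 10 then passed, against 39.4%. With dox, shAKAP2 against shScramble gave a log2 difference of -1.74 (SE 0.0651) for IL6ST and -2.30 (SE 0.5) for IL6. These comparisons share libraries, so their values stand side by side and no agreement is drawn from them. The 10 genes were chosen with these values known, so nothing is read from their calls here.

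**Figure D3:**
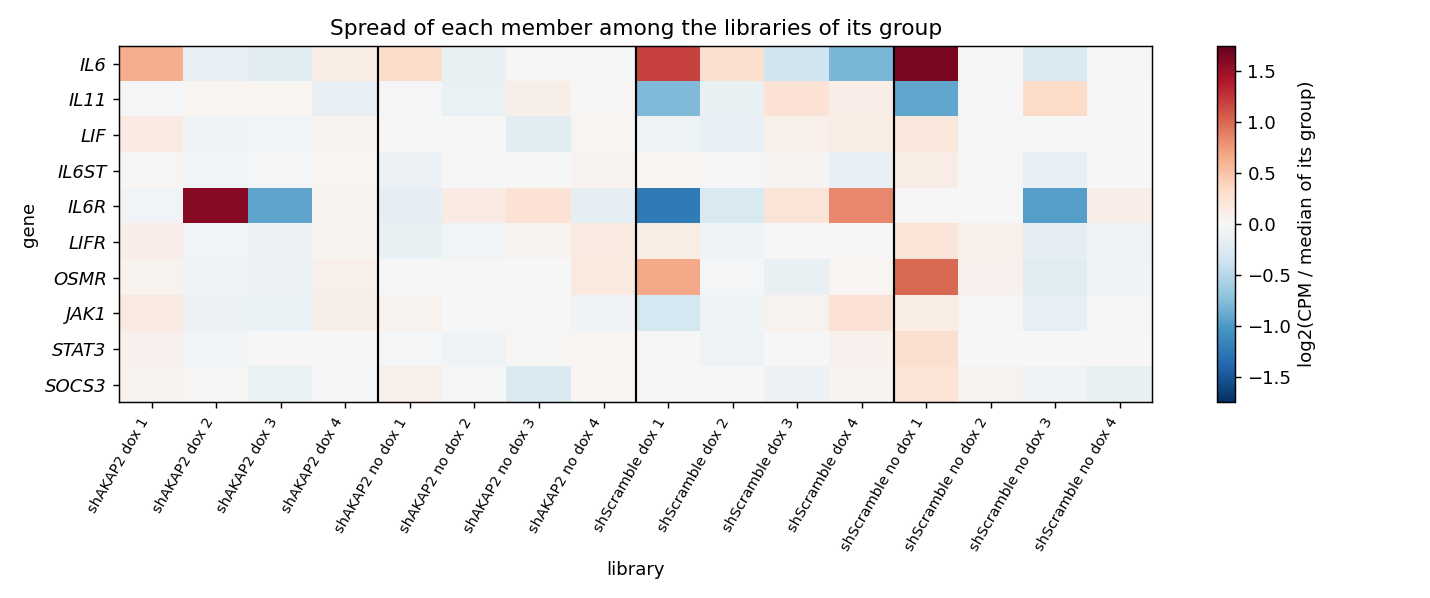
Spread of the 10 genes (rows) over the 16 libraries (columns), as log2 of the CPM over the median of the library's own group; red is above that median and blue below. The largest values are 1.65 for IL6 in the shScramble library without dox numbered 1 and about 1.6 for IL6R in the shAKAP2 library with dox numbered 2, while IL6ST stays close to 0 throughout.

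Variation within groups was concentrated in a few genes. In the shScramble libraries numbered 1, IL6 lay 1.19 above its group median on the log2 scale with dox and 1.65 above it without dox. OSMR lay 0.66 and 1.01 above it in those libraries, and IL11 lay at -0.77 and -0.91. IL6ST lay at 0.03 and 0.12 there, closer to its group medians than IL6, OSMR or IL11. Its library without dox numbered 1 was still the highest of that group, at 642 CPM against 535 to 589 CPM.

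Across all 16 libraries, the 5 genes whose log2 CPM correlated best with that of IL6ST, among 12847 genes with a mean of at least 1 CPM, were CSNK1G3 (Pearson r = 0.992), RPRD1A (0.991), SEC23A, ZNF33B and MRPS10 (0.99 each). They encode a casein kinase, a protein that binds RNA polymerase II, a coat protein of vesicles that leave the endoplasmic reticulum, a zinc finger protein and a mitochondrial ribosomal protein. These points share groups, and after subtraction of the group means r was 0.389 to 0.644. RPRD1A holds 2 copies of GAACACA in its 3′ UTR, SEC23A and ZNF33B 1 each, and CSNK1G3 and MRPS10 none. Among the other 9 genes of the family the same correlation with IL6ST was 0.924 for LIFR, 0.83 for IL6, 0.659 for IL11 and 0.533 for OSMR. It was -0.129 for IL6R, -0.447 for SOCS3, -0.672 for JAK1, -0.782 for LIF and -0.788 for STAT3. All of these values are descriptions over 16 libraries in 4 groups.

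The wider pathway was followed with 4 lists of 89 genes, none of them among the 10, of which 80 could be tested. The lists were chosen with earlier results of these data known, so their shares are a description and no independent evidence. For dox against no dox in the shAKAP2 line, 11 rose and 23 fell, 42.5% of the 80 against 28.3% of all genes tested. Their median log2 difference was -0.10 against 0.00. The counts were 15 and 30 without the 2 shScramble libraries numbered 1, when 39.4% of all genes passed. Adjusted p-values in what follows come from the quasi-likelihood test of edgeR, with Benjamini-Hochberg adjustment over 15566 genes. In the shScramble line 1 rose and 2 fell, 3.75% of the 80 against 1.08% of all genes, and without the 2 libraries numbered 1 these counts were 10 and 3, when 6.36% of all genes passed.

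Among the other gp130 ligands and receptor chains, 0 of 9 tested genes rose and 2 fell in the shAKAP2 line, 22.2% against 28.3% of all genes. Their median log2 difference was 0.02. The counts were 1 and 2 without the 2 shScramble libraries numbered 1, when 39.4% of all genes passed. LEPR, the leptin receptor, which is built like gp130, measured 2.26, 2.57, 3.12 and 3.48 CPM in shAKAP2 libraries with dox, against 8.28, 9.95, 8.03 and 10.3 CPM without dox. It fell by 1.68 on the log2 scale (SE 0.196, adjusted p = 1.68e-06), and the difference between the lines' effects was -1.59 (SE 0.265, adjusted p = 0.000231). CNTF, a neurotrophic cytokine that signals through LIFR and gp130, measured 1.52, 0.88, 1.13 and 1.28 CPM with dox, against 3.90, 1.84, 3.81 and 2.79 CPM without dox. It fell by 1.36 (SE 0.349, adjusted p = 0.0057), and the difference between the lines' effects did not pass (-1.27, SE 0.489, adjusted p = 0.0804), with 38.6% of its exonic bases shared with the readthrough gene ZFP91-CNTF. Both genes hold GAACACA in a 3′ UTR. IL27, IL31, CNTFR and OSM had too few counts to be tested, with at most 4 counts over all libraries.

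Among the other kinases, STATs, adaptors and negative regulators, 5 of 27 rose and 8 fell in the shAKAP2 line, 48.1% against 28.3% of all genes. The counts were 5 and 10 without the 2 shScramble libraries numbered 1, when 39.4% of all genes passed. GRB2, the adaptor that links activated receptors to the Ras pathway, measured 89.8, 93.0, 96.0 and 95.6 CPM in shAKAP2 libraries with dox, against 177, 168, 169.9 and 170.3 CPM without dox. It fell by 0.87 (SE 0.0597, adjusted p = 8.41e-10), and the difference between the lines' effects was -0.89 (SE 0.0839, adjusted p = 2.29e-07). GAB2, a docking protein that passes signals from gp130 to other pathways, fell by 0.60 (SE 0.134, adjusted p = 0.00199), and SOCS4, a relative of SOCS3, fell by 0.43 (SE 0.072, adjusted p = 0.000113). ADAM17, the protease that sheds IL6R from the cell surface, measured 86.1, 88.6, 89.4 and 86.1 CPM with dox, against 50.4, 53.6, 59.8 and 57.1 CPM without dox. It rose by 0.66 (SE 0.121, adjusted p = 0.000329), and 13.6% of its exonic bases are shared with a gene on the opposite strand. PTPN2, a phosphatase that acts on JAK1 and STAT3, rose by 0.43 (SE 0.066, adjusted p = 4.23e-05). It averaged 65.0 CPM in shAKAP2 cells with dox and 48.1 CPM without dox. The averages in shScramble cells were 62.2 CPM with dox and 61.2 CPM without dox, so the shAKAP2 group without dox was the one that stood apart. STAT6, which serves interleukin 4, fell by 0.30 (SE 0.0735, adjusted p = 0.00414). JAK2 and TYK2, the other kinases that bind gp130, stood at log2 differences of -0.07 (SE 0.15) and -0.04 (SE 0.11) and did not pass (adjusted p = 0.764 and 0.832).

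Of 24 tested target genes of STAT3, 2 rose and 8 fell in the shAKAP2 line, 41.7% against 28.3% of all genes. Their median log2 difference was -0.21, while STAT3 RNA itself was higher there. The counts were 4 and 10 without the 2 shScramble libraries numbered 1, when 39.4% of all genes passed. VEGFA, a growth factor for blood vessels, stood at 77.8 to 82.6 CPM in shAKAP2 libraries with dox, against 116 to 127 CPM without dox, and fell by 0.57 (SE 0.0578, adjusted p = 2.26e-07). In the shScramble line VEGFA also fell, by 0.33 (SE 0.0572, adjusted p = 0.00321; adjusted p = 0.133 in a fit of those 2 groups alone, and 0.00105 without the 2 libraries numbered 1). The difference between these effects was -0.24 (SE 0.0811, adjusted p = 0.0473) and passed in 6 of 22 alternatives. ZEB1, a factor of the mesenchymal state, fell by 0.56 (SE 0.0626, adjusted p = 9.44e-07), and IRF1, a factor of the interferon response, fell by 0.85 (SE 0.105, adjusted p = 3.2e-06). IRF1 measured 22.4, 22.8, 19.4 and 19.2 CPM in shAKAP2 libraries with dox, against 37.7, 37.6, 39.7 and 36.5 CPM without dox; 22% of its exonic bases are shared with C5orf56 on the opposite strand. HIF1A, the oxygen-regulated factor, fell by 0.55 (SE 0.1, adjusted p = 0.000313). With all libraries, the 2 that rose were SAA1, an acute phase protein (log2 1.22, SE 0.272, adjusted p = 0.00354), and PIM1, a kinase (log2 0.34, SE 0.0679, adjusted p = 0.000693). In the shScramble line PIM1 stood at 60.4 to 66.8 CPM with dox, against 52.9 to 57.1 CPM without dox. It passed there as higher without the 2 libraries numbered 1 (log2 0.25, SE 0.072, adjusted p = 0.0269). SAA1 and PIM1, and the other genes of this list that passed, were named beyond the naming rule after their values were seen: MUC1, BCL3, BCL2L1 and TIMP1 fell. BCL3 did not pass without the shAKAP2 dox library numbered 1, nor TIMP1 without any 1 shAKAP2 library other than the dox library numbered 3. Of the tested myeloid and fibroblast markers, 3 of 10 and 3 of 7 fell in the shAKAP2 line and none rose, when 28.3% of all genes passed. CD68, COL1A1 and LUM averaged higher with dox and the other markers lower. The part of these markers in the values of this list was not tested.

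**Figure D4:**
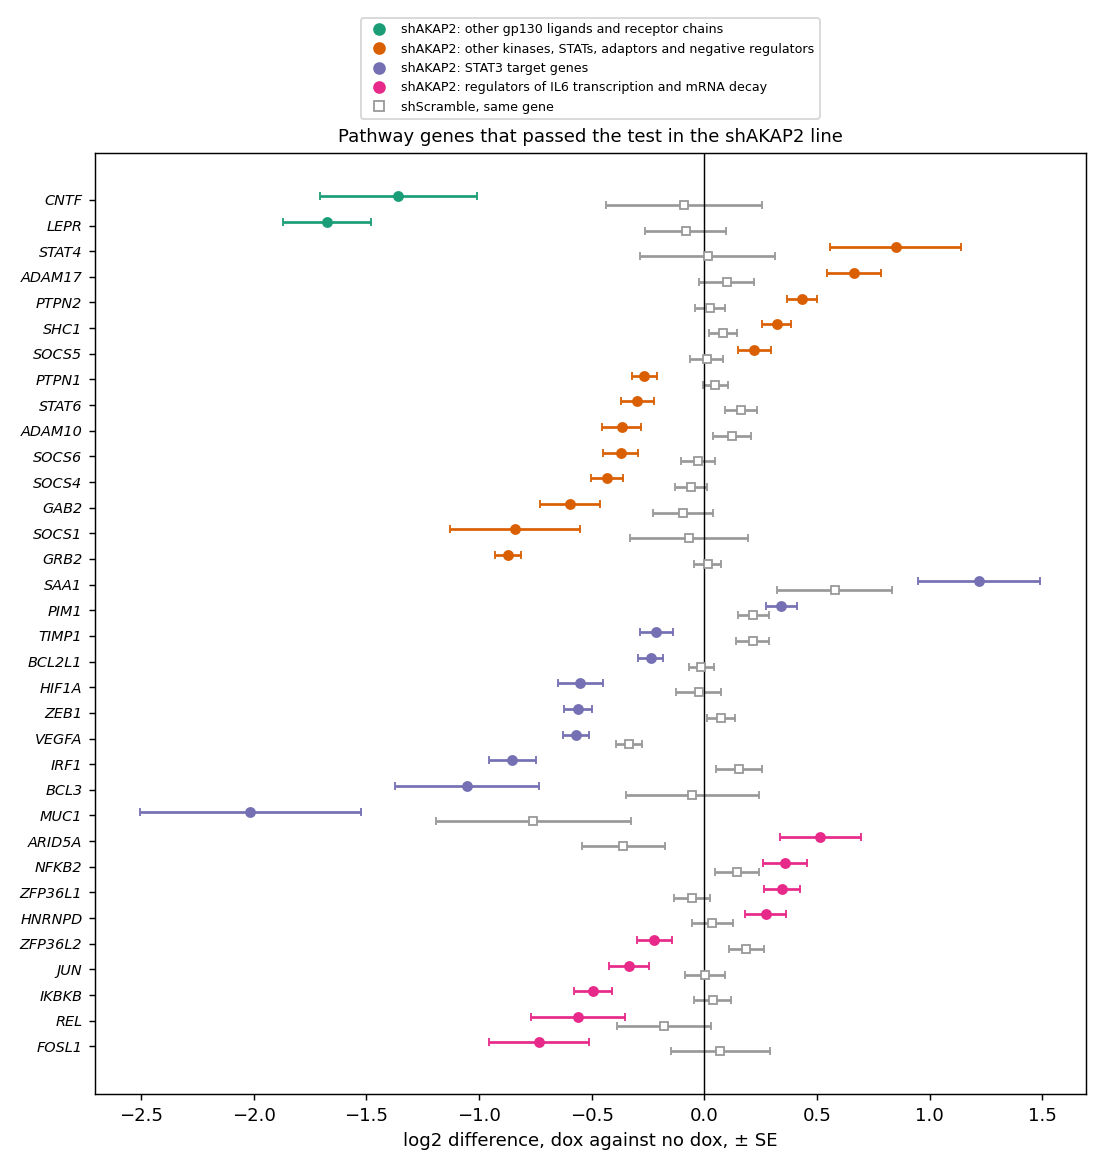
Log2 difference ± SE, dox against no dox (horizontal axis), of the 34 pathway genes that passed the test in the shAKAP2 line (filled circles, coloured by list), with the shScramble value of the same gene (open grey squares). LEPR and GRB2 lie well below 0 in the shAKAP2 line and near 0 in the shScramble line, whereas VEGFA lies below 0 in both.

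Among 20 regulators of IL6 transcription and mRNA decay, 4 rose and 5 fell in the shAKAP2 line, 45% against 28.3% of all genes. Their median log2 difference was -0.11. The counts were 5 and 8 without the 2 shScramble libraries numbered 1, when 39.4% of all genes passed. IKBKB, the kinase that releases the transcription factor NF-kappaB, measured 24.3, 22.8, 19.8 and 21.3 CPM with dox, against 29.5, 29.8, 31.7 and 33.1 CPM without dox, and fell by 0.50 (SE 0.0847, adjusted p = 0.000152). NFKB2, an NF-kappaB subunit, rose by 0.36 (SE 0.096, adjusted p = 0.00773). JUN, part of the AP-1 factor, fell by 0.34 (SE 0.0884, adjusted p = 0.00678). ZFP36L1, a protein that speeds the decay of RNAs with AU-rich elements, rose by 0.34 (SE 0.0793, adjusted p = 0.00244). The genes of this list thus differed in direction.

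In the shScramble line dox switches on the control hairpin, so dox and that hairpin cannot be told apart. There MMP9, a matrix protease, measured 0.390, 1.70, 2.23 and 2.95 CPM in shScramble libraries with dox, against 0.215, 0.148, 0.380 and 0.110 CPM without dox, a log2 rise of 3.07 (SE 0.513, adjusted p = 0.00263). It did not pass with limma-voom (adjusted p = 0.0891) or in a fit of the 2 groups alone (adjusted p = 0.0866), and it did without the 2 libraries numbered 1 (log2 3.40, SE 0.455, adjusted p = 4.81e-06). SOCS2, an inhibitor of cytokine receptors, measured 13.2, 7.47, 7.75 and 9.13 CPM with dox, against 20.5, 18.2, 17.3 and 18.2 CPM without dox, and fell by 0.98 (SE 0.181, adjusted p = 0.0059), or by 1.13 (SE 0.164, adjusted p = 2.08e-05) without those 2 libraries. Without the 2 shScramble libraries numbered 1, 9 of the 24 target genes of STAT3 rose and 2 fell in this line, when 6.36% of all genes passed, among them SAA1, named here after its values were seen (log2 0.74, SE 0.103, adjusted p = 1.11e-05), and IRF1 (log2 0.28, SE 0.0834, adjusted p = 0.0343). With all libraries, 6 of 10 myeloid markers rose in the same line and none fell, against 1.08% of all genes. The part of these markers in the values above was not tested.

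The difference between the lines' effects passed for 23 of the 80 pathway genes, 5 positive and 18 negative, 28.8% against 18.0% of all genes, and for 35 without the 2 shScramble libraries numbered 1, when 30.6% of all genes passed. Of the target genes of STAT3, 0 of 24 were positive and 9 negative, or 2 and 12 without those 2 libraries. The largest by size were MMP9 (log2 -3.52, SE 0.671, adjusted p = 0.000882) and A2M, a protease inhibitor named here after its values were seen (-2.41, SE 0.74, adjusted p = 0.0335; passing in 10 of 22 alternatives). For MMP9 and A2M the effects were -0.45 and -0.65 in the shAKAP2 line, against 3.07 and 1.755 in the shScramble line. Both averaged least in shScramble cells without dox, at 0.213 and 1.28 CPM. The smallest p-values were those of ZEB1 (log2 -0.64, SE 0.0882, adjusted p = 3.17e-05) and IRF1 (-1.01, SE 0.145, adjusted p = 5.02e-05). STAT6 (-0.46, SE 0.104, adjusted p = 0.00363), IKBKB (-0.53, SE 0.119, adjusted p = 0.0035) and ZFP36L2 (-0.41, SE 0.11, adjusted p = 0.0138), another decay factor, were negative as well. For this difference 8 of 10 myeloid and 4 of 7 fibroblast markers were negative and none positive.

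Without dox the lines already differed in 16 of the 80 pathway genes, 7 higher and 9 lower in shAKAP2 cells, 20% against 18.0% of all genes, and in 29 without the 2 shScramble libraries numbered 1, when 26.4% of all genes passed. SOCS2 was lower by a log2 difference of -1.58 (SE 0.185, adjusted p = 9.34e-06), at 5.26, 5.57, 7.69 and 6.23 CPM in shAKAP2 cells without dox, against 20.5, 18.2, 17.3 and 18.2 CPM in shScramble cells without dox. VEGFA was lower (-0.54, SE 0.0573, adjusted p = 2.6e-06). GAB2 (0.75, SE 0.134, adjusted p = 0.00077), MMP9 (3.10, SE 0.513, adjusted p = 4e-04) and JUN (0.34, SE 0.0883, adjusted p = 0.0113) were higher. ZFP36, the founding member of the decay factor family, was higher as well (0.77, SE 0.209, adjusted p = 0.0164) but not without the shAKAP2 no dox library numbered 3 (adjusted p = 0.0513). In this comparison 6 of 10 myeloid markers were higher and 1 lower, although their sum, led by LAPTM5, averaged less in shAKAP2 cells (87 CPM, against 97.9 CPM). Of 7 tested fibroblast markers 2 were higher and 1 lower, and of 4 MDA-MB-231 markers 3 were higher.

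Among the pathway genes, GAACACA stood in a 3′ UTR of 7 of the 23 that fell in the shAKAP2 line (30.4%), of 0 of the 11 that rose and of 2 of the 46 that did not pass (4.35%), against 13.8% of all tested genes with a 3′ UTR and 40.9% of those with at least 5000 bases of it. The word was picked for its frequency in genes lower in these same libraries, so this split is fixed in part by that choice. ADAM10, a protease that also sheds IL6R and that is named here for its count, held 3 copies and fell by 0.37 (SE 0.0864, adjusted p = 0.00293), while GRB2, VEGFA and ZEB1, which fell, held none. In promoters, taken as 250 bases before to 50 after each RefSeq start on GRCh38.p14, TTCNNNGAA, the core of STAT binding sites, which reads alike on both strands, stood in 7.66% of 35116 windows. Of the 9 genes of the family with an entry, LIFR held it, in 2 of its windows, and STAT3, SOCS3, IL6, IL6ST, IL6R, IL11, JAK1 and OSMR did not hold these letters there. The matches at LIFR, on the minus strand, are at chr5:38595562-38595570 and chr5:38557641-38557649, with capitals marking the 9 letters:
LIFR first match: ccattactagTTCCTTGAAccacaatcca
LIFR second match: gctttggagtTTCATCGAAaggtctttaa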

How the data were processed

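The authors deposited raw counts of reads per gene for 57500 genes in 16 libraries. The submitters' processing notes name GRCh38, STAR 2.5.2b and featureCounts with Subread 1.5.2, but neither the annotation release nor the use of strand. Polyadenylated RNA was captured by oligo(dT) and NEBNext Ultra II was the library kit, per the labels' protocols. Columns were matched to libraries by their names in the labels.

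Counts were analysed with edgeR 4.0.16 in R 4.3.3: filterByExpr kept 15566 genes, libraries were scaled by TMM, and a robust quasi-likelihood model held 1 mean for each group over all 16 libraries. The groups thus share 1 estimate of the spread (12 residual degrees of freedom; biological coefficient of variation 14.4%). The p-values were adjusted by Benjamini-Hochberg over all genes tested and called under 0.05. SE is derived from the F statistic. The pipeline was tested on simulated data. The 10 genes, the lists, the naming rule and the word GAACACA were chosen with earlier results of these data known. The rule named, per list, up to 4 genes with the smallest p in the shAKAP2 dox effect and up to 2 in each other comparison. Alternatives were DESeq2 1.42.0 (size factors and Wald test), limma-voom (limma 3.58.1), no filter, a replicate block, 2-group fits and left-out libraries. Positions, exon lengths and 3′ UTRs come from GENCODE 29 (GRCh38), and promoters from RefSeq (GRCh38.p14). Levels per kb divide CPM by the union of annotated exons.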

Additional observations from a re-analysis of the deposited data

Results flagged for a closer look

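In 12 of 120 combinations of gene and group, the highest or lowest library lay far from the other 3 by the 95% criterion of Dixon's ratio, where chance gives about 1 in 20. The shScramble library without dox numbered 1 held 6 of these: IL6 at 27.49 CPM, LIF at 31.25 CPM, OSMR at 296.6 CPM, STAT3 at 159.9 CPM, LEPR at 14.36 CPM and ADAM17 at 72.43 CPM, each the highest of its group. The shScramble library with dox numbered 1 held OSMR at 279.9 CPM and ADAM17 at 79.9 CPM, again the highest. The others were IL6R at 0.2072 CPM, the lowest, in the shScramble library without dox numbered 3, OSMR at 175.1 CPM in the shAKAP2 library without dox numbered 4, SOCS4 at 39.15 CPM in the shAKAP2 library with dox numbered 2 and ZFP36L2 at 60.8 CPM in the shAKAP2 library with dox numbered 4.

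The dox effect differed between the lines, by the interaction term of the edgeR model, for 21 genes named above. The family genes among them were chosen with these values known, and most of the pathway genes were named for passing a test. Nothing is therefore read from that number. On the log2 scale, shAKAP2 effect minus shScramble effect, the difference was -1.585 for IL6ST, -0.5512 for LIFR and 0.6376 for LIF. It was -1.594 for LEPR, -0.8854 for GRB2, -0.461 for STAT6, -0.373 for SOCS4, -0.4896 for ADAM10, 0.4102 for PTPN2, 0.566 for ADAM17 and 0.7748 for SOCS2. Among target genes of STAT3 it was -3.523 for MMP9, -2.409 for A2M, -1.007 for IRF1, -0.6369 for ZEB1, -0.5256 for HIF1A, -0.4268 for TIMP1 and -0.2374 for VEGFA. It was -0.5321 for IKBKB, -0.4072 for ZFP36L2 and 0.3984 for ZFP36L1. Of 22 alternatives, ADAM17 passed in 17, A2M in 10, SOCS2 in 8 and VEGFA in 6, and the other named pathway genes in all.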

How the results depend on the processing

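Of 182 recomputed counts of calls, 168 were within 1.5 times the value reported; no log2 difference of a called gene changed sign. Without both shScramble libraries numbered 1, 13 pathway and 3 family genes passed in the shScramble line, 35 and 5 for the difference between effects, and 29 and 5 for shAKAP2 against shScramble without dox. Fits of 2 groups alone gave 7 family genes in the shAKAP2 line and 1 pathway gene in the shScramble line. Leaving out 1 library at a time gave 26 to 36 pathway genes in the shAKAP2 line, 3 to 7 in the shScramble line, 16 to 28 for the difference and 11 to 26 between the lines without dox; family genes numbered 3 to 5, 0, 3 to 5 and 1 to 4 in the same order. The cause was not tested.

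The labels do not say that same-numbered libraries pair: their deviations correlated at -0.0178 to 0.053 in the shAKAP2 line and 0.0234 to 0.4 in the shScramble line. Not every library correlated best with that of its own number. In the same order of comparisons, a replicate block gave 34, 3, 21 and 15 pathway genes and 5, 0, 4 and 3 family genes; IL6 passed under it in every comparison but that in the shScramble line. Of 23 alternatives, STAT3 passed in 20 and IL6ST in 23 in the shAKAP2 line. Depth limits IL6R.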
